A study of Mus musculus with 21 samples.

Results

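The genes described here encode proteins of the synaptic vesicle, the release machinery, the synaptic scaffold and the neuronal cytoskeleton. They came from a list of 39 gene symbols, and each gene was represented by the probe set with the highest mean over the 21 arrays. Of the 39, 38 had a probe set that named that gene alone and passed the filter on low signal, out of 13850 genes tested in all. Shank2 was not analysed here. Affymetrix arrays, 1 per sample, measured RNA of rostral cerebral cortex dissected from untreated mice at embryonic day 14. Mutants of the transcription factor gene Pax6 were each set against wild-type littermates of their own line, and the values are log2 RMA signals per probe set.

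There were 4 Sey (small-eye) mutants and 3 controls on a C57BL/6J x DBA/2J hybrid background. The Leca4 line had 3 mutants and 4 controls, and the Leca2 line had 4 mutants and 3 controls, both on 129 S6. The labels name the allele but not whether embryos carried 1 or 2 copies, and they call the samples biological replicates. Litters are not given, and p-values therefore reflect only the spread of these samples, which may be technical. Sex is not stated either. It was read from Xist and from Y-linked genes. In the Sey line all 3 controls were male, and of the 4 mutants only 1 was. Males made up 2 of 3 mutants and 3 of 4 controls in the Leca4 line. In the Leca2 line no control was male, and 2 of the 4 mutants were. The alleles are known as changes within the coding sequence that leave the gene in place, so the Pax6 transcript does not check the genotype. The Pax6 signal was 0.56 (adjusted p = 0.000184), 0.49 (0.00276) and 0.93 (1.10e-05) log2 units higher in Sey, Leca4 and Leca2 mutants than in controls. Of the telencephalic markers, none of 4 was at or below the detection level in any group.

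Neurons release transmitter from vesicles that are docked and primed at the active zone and that fuse through a complex of SNARE proteins, with synaptotagmins as calcium sensors and complexins as clamps. At this stage of cortical development newborn neurons migrate and grow axons, and transcripts of synaptic proteins are made well before mature synapses form. Pax6 is known for its roles in cortical progenitors, including their production of neurons and their dorsal identity.

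In Sey mutant cortex 17 of the 38 genes fell and 2 rose. The falls covered vesicle membrane proteins, synaptotagmins, SNARE proteins and complexins, postsynaptic scaffolds and markers of maturing neurons, and were between 0.19 and 0.86 log2 units as fitted. Rims2 and Nrxn3 were the 2 genes that rose. In Leca4 mutants Dlg2 and Sv2b rose and Syn2 fell, and in Leca2 mutants no gene passed the test. Genes were called at an adjusted p under 0.05 in limma, with Benjamini-Hochberg adjustment over all 13850 genes. Among all genes 20.2% were called in Sey mutants, 9.41% down and 10.7% up, against 44.7% down and 5.26% up of the 38. The median change of the 38 genes was -0.24, also with Syt13 taken at its lower bound, and that of all genes tested was -0.00025. In this bulk tissue, fewer cells of a type and less RNA per cell cannot be told apart.

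**Figure D1:**
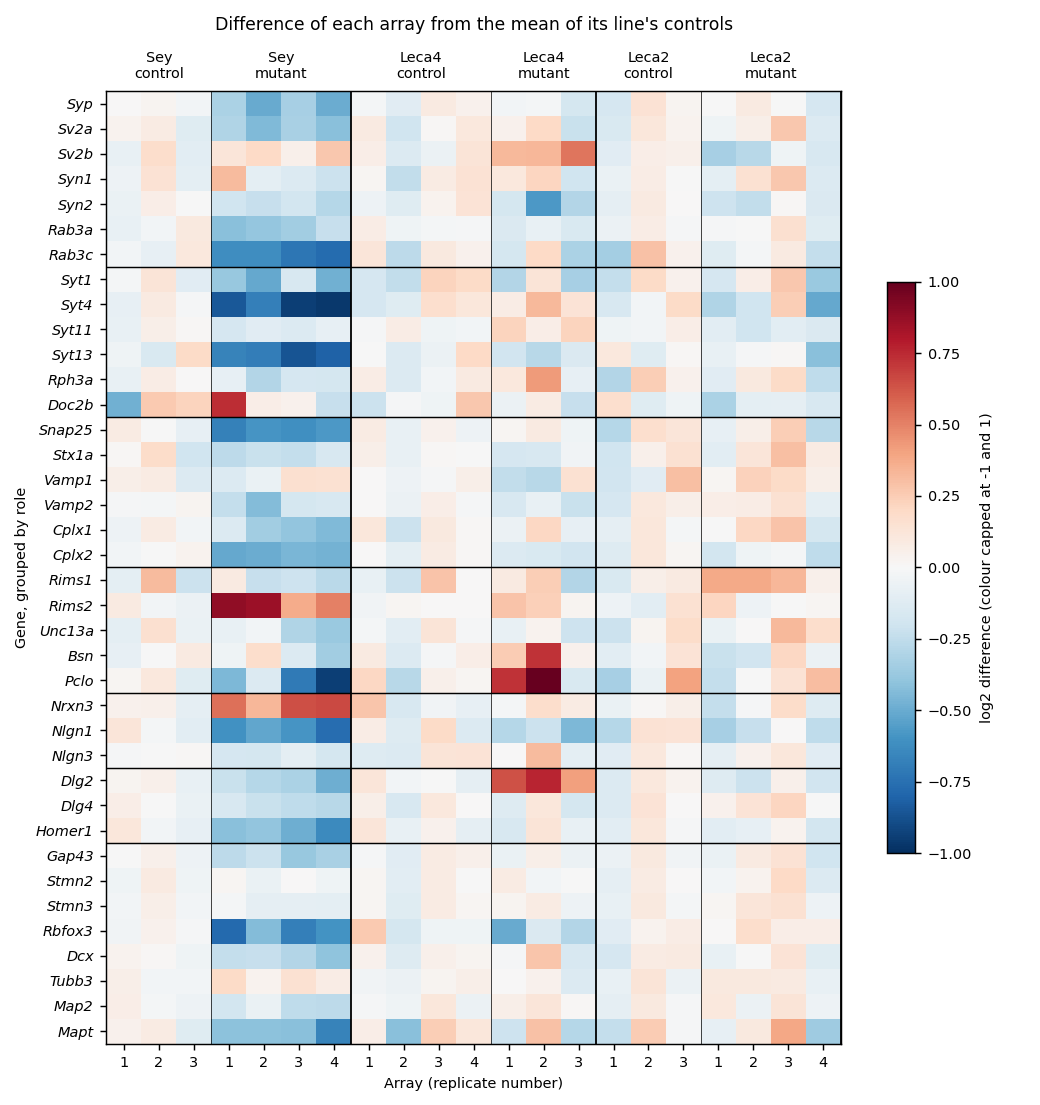
Log2 difference of each of the 21 arrays (columns, by group and replicate number) from the mean of its line's controls, for the 38 genes (rows, grouped by role). The 4 Sey mutant columns are blue for most genes, with 30 to 33 of 38 genes below the control mean, while Rims2 and Nrxn3 are red in all 4.

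The fall was present in each Sey mutant array. Mutants 1 to 4 had 30, 32, 31 and 33 of the 38 genes below the mean of the Sey controls, with median differences of -0.209, -0.228, -0.254 and -0.306. For 25 genes every Sey mutant array lay below every control array, where 14.5% of all genes tested did so, and for 2 genes every mutant array lay above, where 16.5% did so. The summed linear signal of the 38 genes ran from 57800 to 60700 in Sey mutants and from 67600 to 71100 in controls. Most of it came from the 8 genes of the growth cone, cytoskeleton and neuronal nucleus. These alone gave 37400 to 39600 in mutants and 42100 to 44500 in controls. In the other lines the mutant and control sums of the 38 genes overlapped. They were 74600 to 85200 against 73000 to 83100 for Leca4 and 61900 to 74400 against 61900 to 72100 for Leca2.

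**Figure D2:**
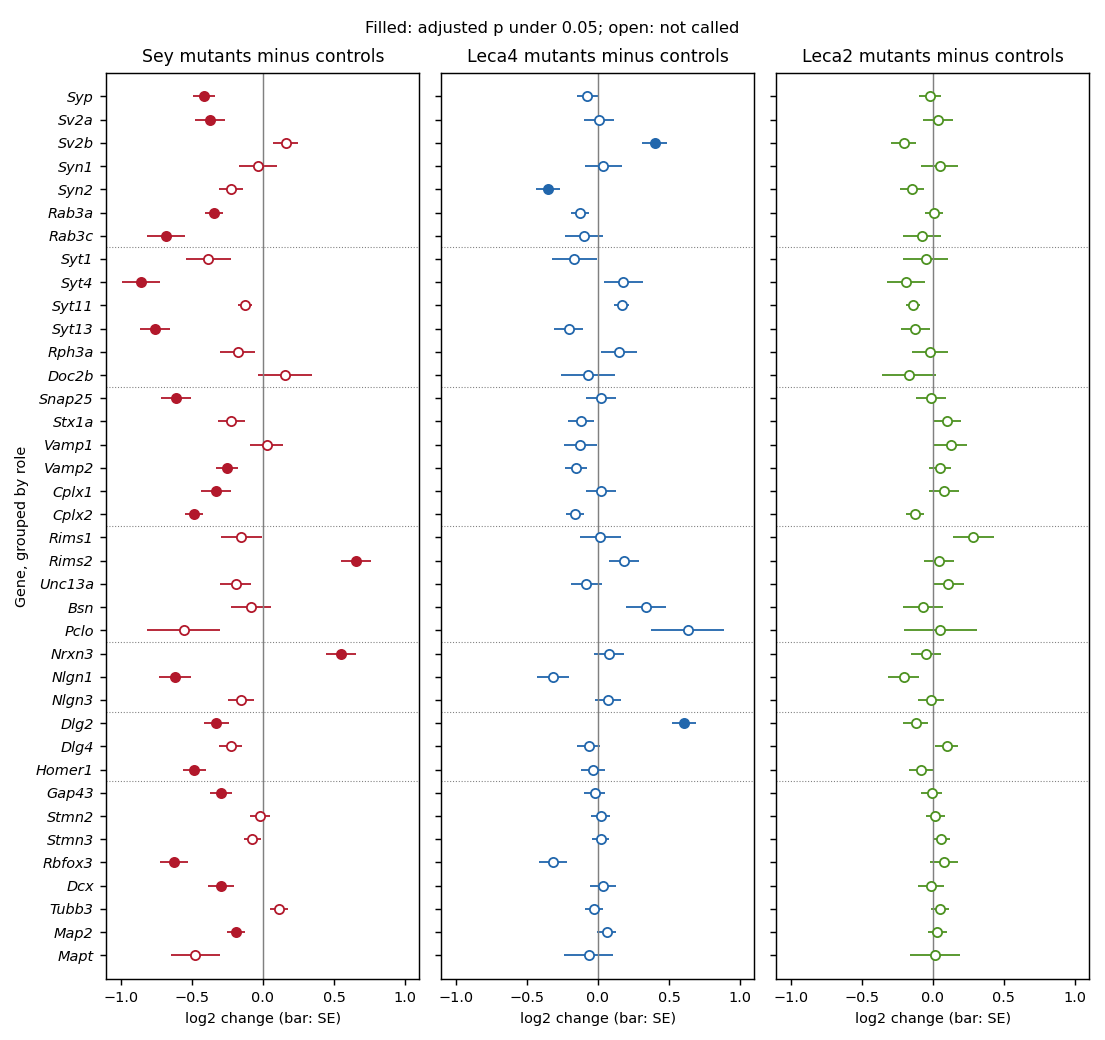
Log2 change of each of the 38 genes (rows, grouped by role) in Sey, Leca4 and Leca2 mutants against the controls of the line, with standard errors as bars and called genes filled. The Sey panel has 19 filled points, the Leca4 panel 3 and the Leca2 panel none.

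Among the 7 vesicle membrane proteins, Syp, Sv2a, Rab3a and Rab3c fell in Sey mutants. Synaptophysin (Syp), an abundant integral protein of the vesicle, read 8.74, 8.55, 8.72 and 8.56 in the mutants and 9.06, 9.08 and 9.03 in the controls. The groups did not overlap, and the change was -0.41 ± 0.08 (SE, n = 4 and 3, adjusted p = 0.000628 in limma). Rab3c and Rab3a are small GTPases of the vesicle surface that take part in docking. Rab3c read 10.21, 10.21, 10.11 and 10.06 in mutants against 10.80, 10.75 and 10.94 in controls. Rab3a read 10.89, 10.92, 10.96 and 11.08 against 11.24, 11.28 and 11.40. Both genes were lower in every mutant array, by -0.68 ± 0.13 for Rab3c (adjusted p = 0.000954) and -0.34 ± 0.06 for Rab3a (adjusted p = 0.000623). The Rab3a probe set is of a design that may also bind related sequences, and the other Rab3a probe set fell by 0.46. Sv2a, a vesicle glycoprotein, fell by 0.37 ± 0.10 (adjusted p = 0.0159). Its relative Sv2b (0.16 ± 0.09) and the synapsins Syn1 (-0.03 ± 0.13) and Syn2 (-0.22 ± 0.08), which tether vesicles to actin, did not pass the test. Syn2 was nevertheless lower in every Sey mutant array than in any control (adjusted p = 0.0713).

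The synaptotagmins, Rph3a and Doc2b were split, and 2 of these 6 genes fell by the test. Syt4, a synaptotagmin of neuronal vesicles, had the largest fall in Sey mutants among genes measured above the detection level in both groups. It read 9.71, 9.87, 9.62 and 9.60 in mutants and 10.48, 10.65 and 10.55 in controls, a change of -0.86 ± 0.14 (adjusted p = 0.000125) or 0.551 times the control level. Syt13, an atypical synaptotagmin, read 5.05, 5.03, 4.86 and 4.91 in mutants against 5.68, 5.57 and 5.92 in controls. All 4 mutant values were at or below the level used for detection, between 5.37 and 5.60 over the arrays, so Syt13 was at least 1.26-fold lower. The fitted change of -0.76 (adjusted p = 2.75e-05) is therefore no measure of the size. Syt1, the fast calcium sensor of release, did not pass the test (-0.38 ± 0.16, adjusted p = 0.095), although its 3 controls all lay above its 4 mutants. Syt11, which lacks calcium binding, read 11.57, 11.62, 11.60 and 11.66 in mutants against 11.67, 11.80 and 11.75 in controls. Its groups came close without overlapping, and its change of -0.13 ± 0.05 was not called (adjusted p = 0.096). The Rab3 effector Rph3a (-0.18 ± 0.13) and the calcium-binding priming protein Doc2b (0.15 ± 0.19) did not pass the test.

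Of the 6 SNARE proteins and complexins, Snap25, Vamp2, Cplx1 and Cplx2 fell. Complexin 2 (Cplx2) had the smallest p of the 38 genes. Its mutant arrays read 10.02, 10.03, 10.06 and 10.05, and its control arrays 10.50, 10.52 and 10.56. The means were 10.04 ± 0.02 (SD, n = 4) and 10.53 ± 0.03 (SD, n = 3), so that the gap was many times the spread within either group. The change was -0.48 ± 0.06 (adjusted p = 1.43e-05). Snap25, the plasma membrane SNARE with 2 helices in the complex, read 9.998, 10.09, 10.06 and 10.10 in mutants and 10.76, 10.67 and 10.59 in controls. This was a change of -0.61 ± 0.10 (adjusted p = 0.000276), again with no overlap. Complexin 1 (Cplx1) read 11.22, 11.01, 10.96 and 10.91 against 11.30, 11.43 and 11.33 and changed by -0.33 ± 0.11 (adjusted p = 0.0365). Vamp2, the vesicle SNARE of the forebrain, changed by -0.25 ± 0.07 (adjusted p = 0.0208). The remaining SNARE genes Stx1a (-0.22 ± 0.09, adjusted p = 0.105) and Vamp1 (0.03 ± 0.12) were not called.

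Of the 5 active zone genes 1 rose and none fell by the test, and their median change was -0.15. Rims2, a scaffold that links Rab3 to the priming machinery, read 8.43, 8.40, 7.92 and 8.05 in Sey mutants against 7.63, 7.52 and 7.48 in controls. Mutants 1 and 2 were the highest, and all 4 lay above every control. The change was 0.65 ± 0.11 (adjusted p = 0.000167). Bassoon (Bsn), a giant scaffold of the active zone, read 8.23, 8.45, 8.13 and 7.92 against 8.18, 8.27 and 8.36, and the groups overlapped (-0.09 ± 0.14). Its relative piccolo (Pclo) was lower in every mutant array (-0.56 ± 0.26) without passing the test (adjusted p = 0.141). The priming factor Unc13a (-0.19 ± 0.11) and Rims1 (-0.15 ± 0.14) were not called.

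The adhesion genes moved in opposite directions in Sey mutants. Nrxn3, a presynaptic neurexin, read 9.54, 9.33, 9.64 and 9.66 in mutants and 9.04, 9.05 and 8.91 in controls, a rise of 0.55 ± 0.10 (adjusted p = 0.000828). Neuroligin 1 (Nlgn1), a postsynaptic partner of neurexins, read 7.67, 7.76, 7.69 and 7.52 against 8.40, 8.26 and 8.18. It changed by -0.62 ± 0.11 (adjusted p = 0.000389). Neither gene had overlapping groups. Nlgn3 (-0.15 ± 0.09) was not called.

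Among postsynaptic scaffolds Homer1, which links metabotropic glutamate receptors to calcium stores, read 10.02, 10.04, 9.95 and 9.80 in Sey mutants and 10.55, 10.41 and 10.36 in controls. The change was -0.48 ± 0.08 (adjusted p = 0.000251), with no overlap. Dlg2, which encodes the scaffold PSD-93, read 8.17, 8.11, 8.08 and 7.91 against 8.42, 8.44 and 8.32, a change of -0.33 ± 0.09 (adjusted p = 0.0107). Dlg4, the gene of PSD-95, was lower in every mutant array but just missed the threshold (-0.23 ± 0.08, adjusted p = 0.0531).

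The 8 genes of the growth cone, the cytoskeleton and the neuronal nucleus separated into those that fell and those that were not called. Rbfox3, which encodes the neuronal nuclear antigen NeuN, read 11.15, 11.50, 11.25 and 11.33 in Sey mutants and 11.90, 11.98 and 11.92 in controls. It changed by -0.62 ± 0.10 (adjusted p = 0.000127), the largest change of this role. Gap43, a growth cone protein, changed by -0.29 ± 0.07 (adjusted p = 0.00735). Dcx, a microtubule protein of migrating neurons, changed by -0.29 ± 0.09 (adjusted p = 0.026) and the dendritic protein Map2 by -0.19 ± 0.07 (adjusted p = 0.0475). Stmn3, a regulator of microtubules, read 12.89, 12.82, 12.82 and 12.82 against 12.88, 12.97 and 12.88, and the groups overlapped (-0.08 ± 0.06). Tubb3 and Stmn2 were looked at array by array after their values had been seen, and they do not stand for neuronal genes in general, since Dcx, Map2 and Rbfox3 fell. Tubb3, a tubulin of newborn neurons, read 12.75, 12.59, 12.71 and 12.63 in mutants against 12.61, 12.53 and 12.53 in controls, a difference of 0.11 with a 95% interval of -0.02 to 0.25. For Stmn2 the difference was -0.02, with an interval of -0.17 to 0.12. The other Stmn2 probe set changed by -0.18 and was not called (adjusted p = 0.265 by limma over all kept probe sets). The axonal protein Mapt was lower in every mutant array (-0.47 ± 0.17) and did not pass the test (adjusted p = 0.0623).

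**Figure D3:**
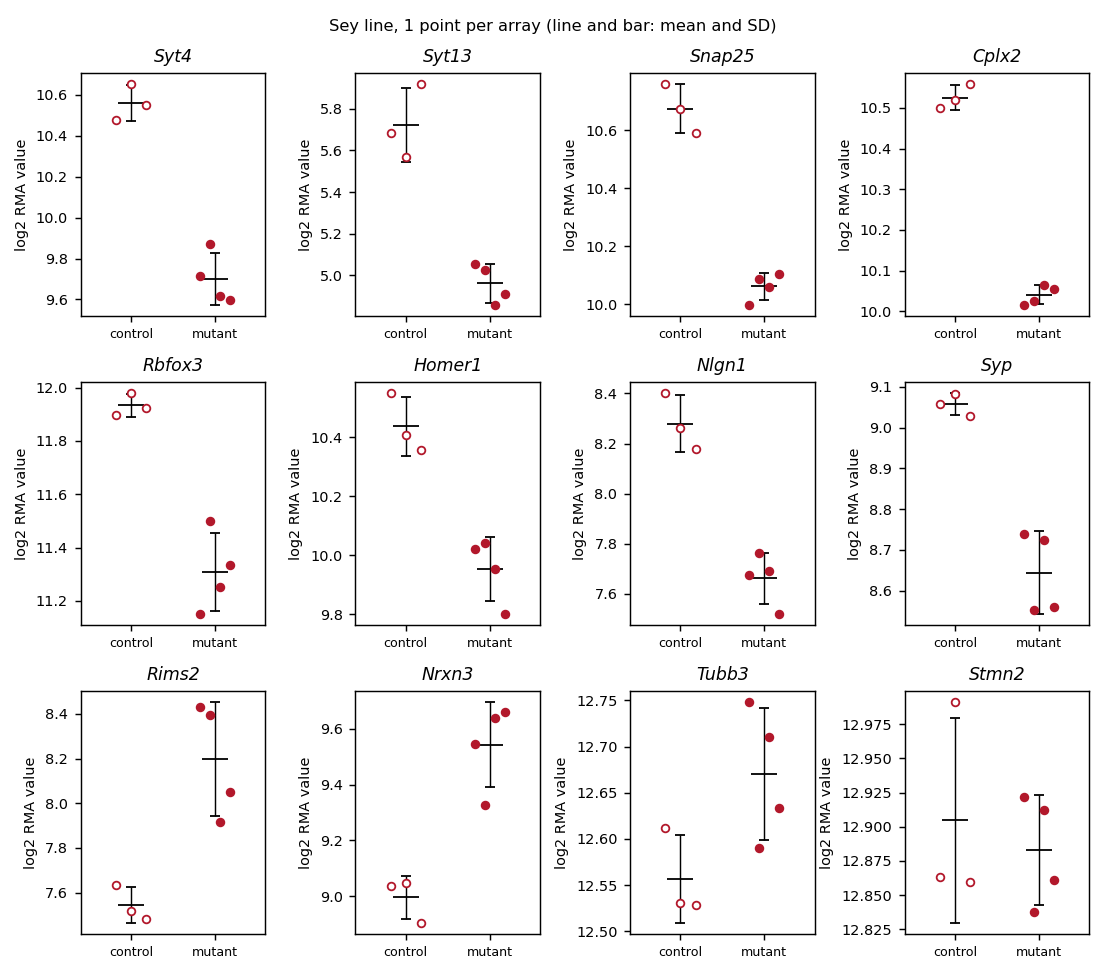
Log2 RMA values of 12 genes in the Sey line (vertical axes, each with its own range that does not start at 0), with 1 point per array for 3 controls (open) and 4 mutants (filled) and the mean and SD as line and bar. Mutant and control points do not overlap for 10 of the genes, with Rims2 and Nrxn3 higher in mutants. They overlap for Tubb3 and Stmn2, which were chosen after their values were seen.

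Where a gene had several probe sets, these gave a further reading of the same samples. The 38 genes had 93 kept probe sets of 107, and 10 genes had only 1. In Sey mutants 30 of the 93 fell and 6 rose, where 6.85% and 7.78% of all 29474 kept probe sets did so. For Homer1 all 5 probe sets fell, for Cplx2 and Rbfox3 all 3, and for Syt4, Snap25 and Rab3a both. All 4 Nrxn3 probe sets rose, by 0.55 to 1.90, and the probe set chosen by its mean showed the smallest rise. Rims2 was mixed, with 2 of 4 probe sets up and values from -0.17 to 0.65. For Rab3c 3 of 4 fell, for Syp, Vamp2 and Dlg2 1 of 2, and for Dcx 1 of 4. Of the 3 Cplx1 probe sets 1 fell, which was not the chosen one (adjusted p = 0.051 over all kept probe sets). None of the 4 Map2 probe sets passed on its own, and the mean of the Map2 probe sets did not differ detectably (-0.02, adjusted p = 0.929). In Leca4 mutants 3 of the 93 fell and 4 rose, where 1.64% and 2.13% of all kept probe sets did so. Besides the chosen Syn2 probe set, the falls were in 1 of 3 Cplx2 probe sets (-0.42, adjusted p = 0.00754) and 1 of 3 of Rbfox3 (-0.29, adjusted p = 0.0478). Neither of these was the chosen one.

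**Figure D4:**
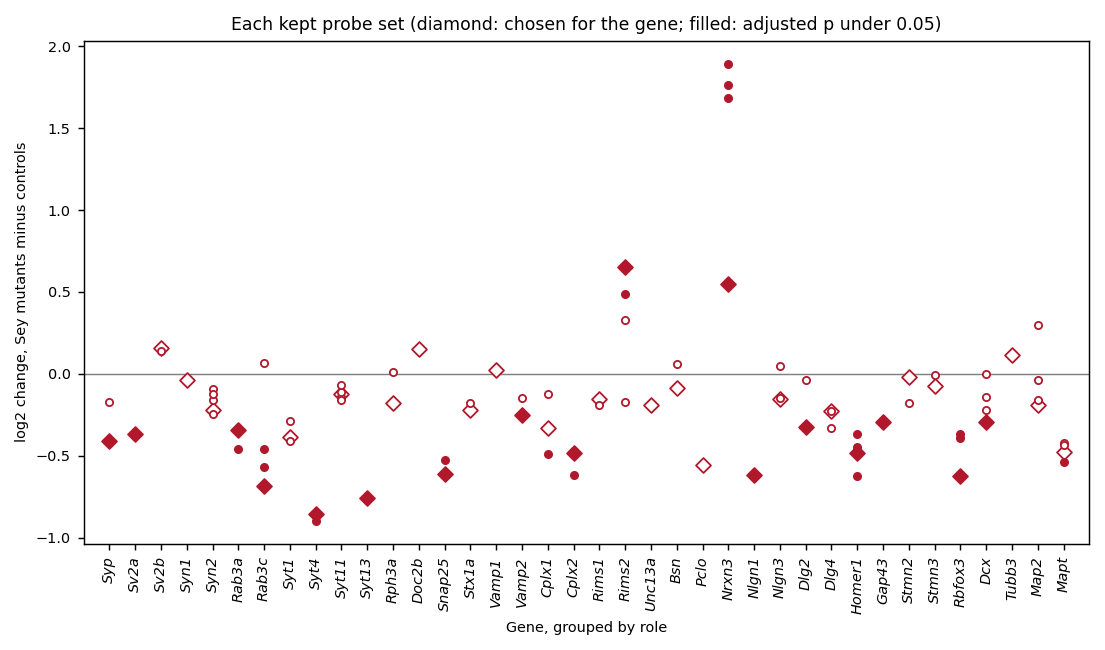
Log2 change in Sey mutants (vertical axis) of each of the 93 kept probe sets of the 38 genes (horizontal axis), with the chosen probe set as a diamond and called ones filled. All 4 Nrxn3 probe sets lie above 0 and all 5 of Homer1 below, while those of Rims2 and Map2 lie on both sides.

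The size of the Sey count changed when a term for sex entered the fit, and no called gene changed direction in that fit. With a term for sex, 10 genes fell and 2 rose, where 14% of all genes were called, and the calls of Gap43, Dlg2, Sv2a, Vamp2, Dcx, Cplx1 and Map2 were lost. In the male arrays alone, which leave 1 mutant and 3 controls, 4 genes fell and 1 rose, where 6.35% of all genes were called, and all 19 genes kept their direction. That comparison assumes that the lone mutant varies like the other groups. Rims2, Cplx2, Syt13, Syp and Vamp2 were the 5 genes called in it. Syp, Syn1, Nlgn3 and Dcx lie on the X chromosome. When each Sey array was left out in turn, 14 of the 19 calls held throughout, and 5 did not. Vamp2 was lost without mutant 2 (adjusted p = 0.072), control 1 (0.0564) or control 3 (0.0708), and Sv2a without control 1 (0.0603) or control 2 (0.0731). Dcx was lost without mutant 4 (0.0757), control 1 (0.0898) or control 2 (0.071). Cplx1 and Map2 were each called in 1 of the 7 fits, with adjusted p up to 0.131 and 0.19.

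Markers of cell types moved with these changes in Sey mutants. All 8 tested markers of cortical projection neurons fell, with a median of -0.70, and their summed signal was 18800 to 21600 in mutants against 29600 to 31100 in controls. All 9 markers of cycling cells rose, with a median of 0.71 and sums of 29200 to 31200 against 19100 to 19900. Of 10 genes that mark ventral telencephalon or GABAergic neurons, 9 rose, with sums of 11200 to 16700 against 1670 to 2090, and 2 of the 10 were at or below the detection level in the controls. Of 8 markers of Cajal-Retzius cells 6 rose, with sums of 5010 to 7050 against 3490 to 4260. Of 8 markers of intermediate progenitors 6 fell and 1 rose, with sums of 9930 to 12200 against 18000 to 18400. Radial glia were mixed, with 1 of 9 markers up and 2 down, and 2 of 4 telencephalic markers rose. None of 21 markers of endothelial, erythroid, meningeal, choroid plexus or microglial cells was called by limma in Sey mutants, and 2 had an unadjusted p under 0.05. The part of these cell types in the changes of the synaptic genes was not tested.

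A wider list of synaptic and neuronal genes was read in the same way, with 87 of 97 tested. In Sey mutants 20 fell and 6 rose, where 9.41% and 10.7% of all genes did so. The median was -0.12. The falls were uneven between roles. Of 13 active zone and priming genes 6 fell and 1 rose, and of 7 adhesion genes 3 fell. Of 11 vesicle membrane genes 3 fell and 1 rose. Of 13 SNARE, complexin and fusion genes 2 fell and 1 rose, as did 2 and 1 of 13 calcium sensors and Rab3 effectors. Of 20 cytoskeletal and RNA-binding genes 4 fell and 1 rose. Of 10 postsynaptic scaffold genes none fell and 1 rose. The smallest p-values belonged to the neuronal splicing factor Rbfox1 (-1.32 ± 0.14, adjusted p = 1.18e-06) and the RNA-binding protein Elavl2 (-0.34 ± 0.05, adjusted p = 6.48e-05). Synpr, the vesicle protein synaptoporin, rose by 1.33 ± 0.22 (adjusted p = 0.000223) and the adhesion gene Lrrtm2 changed by -0.91 ± 0.16 (adjusted p = 0.000339). In Leca4 mutants the synaptotagmins Syt2 and Syt9 (0.53 ± 0.10, adjusted p = 0.00422) were called up. Syt2 was at or below the detection level in all Sey arrays, all 3 Leca2 controls and 3 of 4 Leca2 mutants. It therefore passed the filter only through the Leca4 mutants, where it was high, and its call is no fair test. All 4 Leca4 controls were at or below the detection level for Syt2, so its rise was at least 1.12-fold, with measured means of 5.76 in mutants and 4.87 in controls. Over the wider list in Leca4, 2 of the 87 were called, Syt2 among them, where 5.62% of all genes were, and 12 had an unadjusted p under 0.05. In Leca2 mutants limma called none, where 0.477% of all genes were called, and 3 had an unadjusted p under 0.05.

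Many neuronal genes carry the RE1 element, through which the repressor REST silences them outside neurons. Of 7 tested repressors of neuronal genes 1 rose in Sey mutants, where 10.7% of all genes rose. This was Sin3a, a corepressor scaffold, with a change of 0.26 ± 0.06 (adjusted p = 0.00555). None of the 7 was called, or had an unadjusted p under 0.05, in the other lines. Rest itself differed by 0.12 ± 0.13 in Sey (adjusted p = 0.605), by -0.19 ± 0.13 in Leca4 and by -0.09 ± 0.13 in Leca2. Letters from the left and right parts of the RE1 element, TTCAGCACC and GGACAGCGC, which do not overlap, were searched on both strands in RefSeq promoters of the build GRCm38.p6, each 300 bases long from 250 before to 50 after a start site. The left stretch was in 0.371% of 32851 promoters and in at least 1 promoter of 0.433% of 27025 genes, and the right in 0.405% and 0.477%. Of the 28 genes with a promoter in that table, with 45 promoters in all, 3 held the left stretch and 1 the right. They are shown because they are the only genes of the 38 with such letters there, with the matched letters in capitals, on the strand of the gene. Nlgn1 fell in Sey mutants, and Unc13a and Syn1 were not called in any line. The Nlgn1 match lies at bases -153 to -145 from a start site (the sequence is chr3:26154091-26154179, minus strand) and the Syn1 match at -232 to -224 (chrX:20921102-20921168, minus strand). The Unc13a matches lie within bases 6 to 31 after the start (chr8:71671727-71671752, minus strand), as the reverse complements of both stretches. A match describes the letters only and is no evidence of binding.
Nlgn1: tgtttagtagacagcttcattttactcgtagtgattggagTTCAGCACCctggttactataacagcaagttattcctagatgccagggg
Syn1: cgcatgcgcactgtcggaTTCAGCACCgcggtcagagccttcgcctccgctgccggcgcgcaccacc
Unc13a: GCGCTGTCCgcgcccccGGTGCTGAA

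In Leca4 mutants 3 of the 38 genes were called, 2 up and 1 down, or 7.89%, where 5.62% of all genes were called, 3.39% up and 2.24% down. The median change of the 38 was -0.00817. Dlg2, which fell in Sey mutants, rose here. It read 9.12, 9.24 and 8.89 in Leca4 mutants against 8.59, 8.45, 8.47 and 8.39 in their controls, with no overlap and a change of 0.61 ± 0.09 (SE, n = 3 and 4, adjusted p = 0.000217). Both Dlg2 probe sets rose, by 0.46 and 0.61. The vesicle glycoprotein gene Sv2b read 8.99, 9.003 and 9.21 against 8.74, 8.54, 8.61 and 8.80. Its change was 0.40 ± 0.09 (adjusted p = 0.00939), and 1 of its 2 probe sets was called. Without mutant 3 the Sv2b call was lost (0.33, adjusted p = 0.0642), and among male arrays alone as well (0.28, adjusted p = 0.149).

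Syn2 read 8.60, 8.20 and 8.48 in Leca4 mutants against 8.72, 8.65, 8.81 and 8.91 in controls, and mutant 2 was the lowest array. The change was -0.35 ± 0.08 (adjusted p = 0.018). This call rested on 1 of 5 probe sets. The mean over the Syn2 probe sets went the other way and was not called (0.14, adjusted p = 0.273), and the chosen probe set did not pass without mutant 2 (-0.24, adjusted p = 0.103) or without control 4 (adjusted p = 0.06). Every Leca4 mutant array lay below every control for 6 of the 38 genes, Syn2 among them, and above for 3, with Dlg2 and Sv2b, where 7.03% and 8.25% of all genes did so. Pclo showed the widest spread, at 8.77, 9.38 and 7.90 in mutants against 8.26, 7.77, 8.10 and 8.07, and it was chosen after its values were seen. Mutants 1 and 2 were above all controls and mutant 3 was not, and the change of 0.63 ± 0.26 was not called (adjusted p = 0.184). Among male arrays alone Pclo was called (0.93, adjusted p = 0.032). These leave out mutant 3 and control 2, the lowest array of each group. Gene and subset were both chosen after the data were seen, so this call is no separate support for a rise. Of 5 microglial markers 3 rose in Leca4 mutants, with sums of 1410 to 1590 against 1090 to 1230. Of 8 projection neuron markers Cux2 fell (-0.57 ± 0.15), of 9 radial glia markers Slc1a3 fell (-0.37 ± 0.10), and of 8 markers of intermediate progenitors Neurog1 rose (1.34 ± 0.15). The sums of these 3 lists overlapped between mutants and controls. Their part in the changes of Dlg2, Sv2b and Syn2 was not tested.

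**Figure D5:**
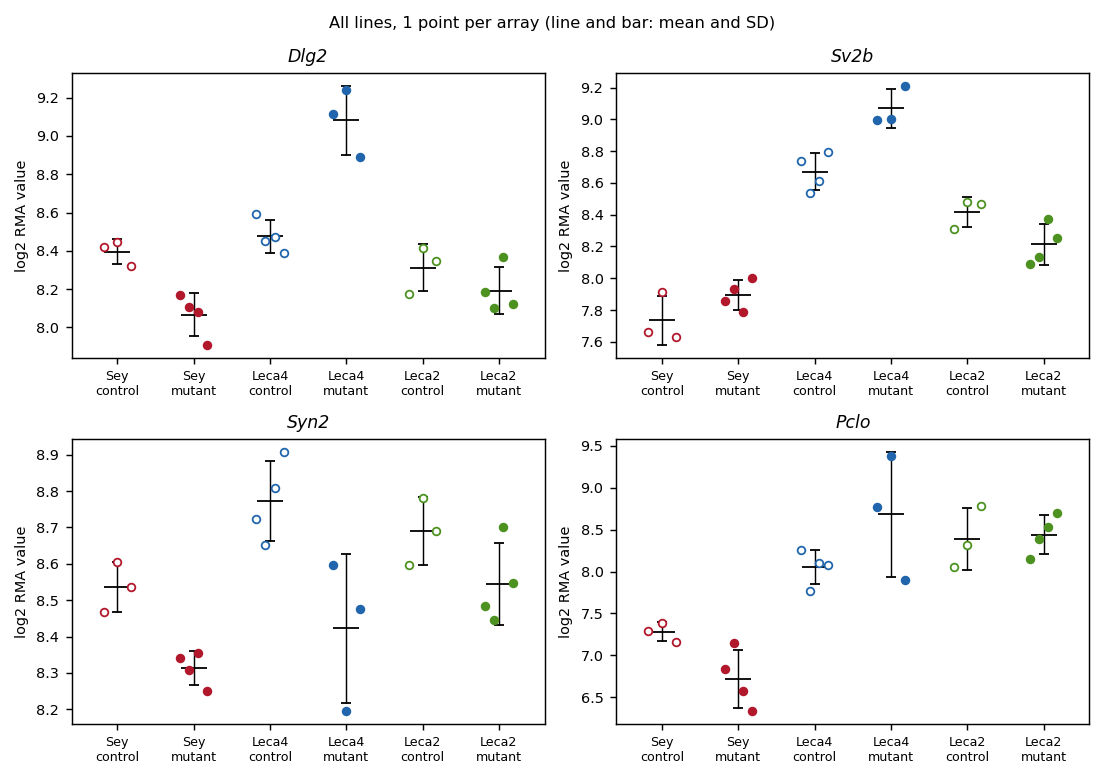
Log2 RMA values of Dlg2, Sv2b, Syn2 and Pclo in all 6 groups (vertical axes, each with its own range that does not start at 0), with 1 point per array, open for controls and filled for mutants, and the mean and SD as line and bar. Dlg2 and Sv2b lie higher in the 3 Leca4 mutants than in the 4 Leca4 controls, and the Leca4 mutant values of Pclo spread from 7.90 to 9.38.

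In Leca2 mutants none of the 38 genes was called by limma, where 0.477% of all genes were, and 2 had an unadjusted p under 0.05. These were Syt11 (-0.14 ± 0.05, adjusted p = 0.474) and Sv2b (-0.20 ± 0.09, adjusted p = 0.644). Syt11 read 11.95, 11.85, 11.95 and 11.91 in mutants against 12.01, 12.03 and 12.12 in controls, and it was the only gene of the 38 whose mutant arrays all lay below the controls, where 3.34% of all genes did so. No gene had all mutant arrays above, where 3.26% did so. Single arrays lay apart within both Leca2 groups. Mutant 3 had 6 of 38 genes below the control mean and mutant 4 had 31, while control 1 had 36. For Snap25 the Leca2 mutants read 10.97, 11.11, 11.30 and 10.78 and the controls 10.77, 11.22 and 11.17, with a difference of -0.01 and a 95% interval of -0.23 to 0.21. Of 9 radial glia markers 1 fell in Leca2 mutants and all 9 changes were below 0, with sums of 37700 to 42500 against 45100 to 48000. Of 8 markers of intermediate progenitors 2 fell, and their sums overlapped, at 19500 to 21600 against 21500 to 22800. Among all genes 0.303% fell. No marker of the other cell types was called by limma in Leca2 mutants.

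The differences between the changes of 2 lines were tested in the same model. The Sey line also differs in strain from both Leca lines, so line and strain cannot be told apart. Nor can line and any separate processing of the lines, in any of the 3 comparisons. Both tests of Sey share the Sey arrays. Against Leca4, the Sey change was lower for 10 genes and higher for 2, or 31.6% of the 38, where 12.8% of all genes differed, 6.08% lower and 6.76% higher. The gene with the smallest p was Dlg2, with changes of -0.33 in Sey and 0.61 in Leca4 and a difference of -0.93 ± 0.12 (adjusted p = 4.55e-05). Syt4 differed by -1.04 ± 0.19 (adjusted p = 0.00127), since it read 10.92, 11.18 and 10.99 in Leca4 mutants and 10.68, 10.73, 11.02 and 10.96 in their controls, with overlap. Snap25 read 11.34, 11.40 and 11.27 against 11.40, 11.24, 11.36 and 11.26 in Leca4, and its changes differed by -0.63 ± 0.15 (adjusted p = 0.00757). The chosen Syt11 probe set was not called within either line, and its changes differed by -0.29 ± 0.07 (adjusted p = 0.0112). In Leca4 this probe set read 11.82, 11.66 and 11.82 in mutants against 11.59, 11.68, 11.56 and 11.57 in controls. Of the 5 kept Syt11 probe sets, 1 that was not chosen rose in Leca4 mutants (0.24, adjusted p = 0.00727 by limma over all kept probe sets). The remaining lower differences were those of Homer1, Syt13, Cplx2, Pclo, Syp and Rab3c, and the higher ones Nrxn3 and Rims2. These rest on the chosen probe sets. A Cplx2 probe set that was not chosen was called down in both lines, with changes of -0.47 in Sey and -0.42 in Leca4. With a term for sex 6 of the 12 differences were called, where 9.28% of all genes differed, and Dlg2, Syt4, Snap25 and Syt11 were among them. The same 4 genes kept their call in each of the 14 fits that left out 1 array of either line.

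Against Leca2, the Sey change was lower for 8 genes and higher for 2, or 26.3%, where 6.69% of all genes differed, 3.26% lower and 3.43% higher. Rbfox3 differed by -0.70 ± 0.14 (adjusted p = 0.0039), and read 11.79, 11.96, 11.85 and 11.85 in Leca2 mutants against 11.67, 11.82 and 11.86 in controls. Cplx2 differed by -0.36 ± 0.09 (adjusted p = 0.0177). The difference of Syt13 was called (adjusted p = 0.0116), but its size was not measured, since all 4 Sey mutant values were at or below the detection level. In Leca2, Syt13 read 5.85, 5.91, 5.94 and 5.50 against 6.03, 5.80 and 5.94, and Cplx2 read 10.51, 10.65, 10.68 and 10.44 against 10.56, 10.81 and 10.71. Both overlapped. Rbfox3 and Syt13 were called in each of 14 fits that left out 1 array, while the Cplx2 difference was lost without Leca2 control 1 (-0.30, adjusted p = 0.0703). Rims2 differed by 0.61 ± 0.15 (adjusted p = 0.0179), and this was lost without Leca2 control 3 (adjusted p = 0.0568). With a term for sex only the Rims2 difference was called (0.77, adjusted p = 0.02), where 2.12% of all genes were. In Leca2 the controls were all female and in Sey all male.

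Leca4 and Leca2 mutants share the 129 S6 background. Their arrays still differed in distribution, with detection levels of 5.58 to 5.60 in the Leca4 line and 5.439 to 5.495 in the Leca2 line. The Leca4 change was higher for 3 of the 38 genes, or 7.89%, and lower for none, where 1.42% and 0.96% of all genes were and 2.38% differed in either direction. Dlg2 differed by 0.73 ± 0.12 (adjusted p = 0.00232), since its Leca2 mutants read 8.18, 8.10, 8.37 and 8.12 against 8.17, 8.41 and 8.35. Sv2b differed by 0.60 ± 0.12 (adjusted p = 0.0108). It read 8.09, 8.14, 8.37 and 8.25 in Leca2 mutants against 8.31, 8.48 and 8.46 in controls, overlapping at 1 mutant. Syt11 differed by 0.31 ± 0.07 (adjusted p = 0.0301), and this call was lost with a term for sex (adjusted p = 0.0641) and held in 6 of 14 fits that left out 1 array. Over the 38 genes 4 had an unadjusted p under 0.05 for this difference.

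Across the 38 genes the changes of the lines were weakly related. Pearson's r was 0.215 between Sey and Leca4, 0.191 between Sey and Leca2 and -0.0829 between Leca4 and Leca2, against 0.167, 0.303 and -0.0102 over all genes. These are descriptions across genes, which are not independent replicates.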

How the data were processed

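The deposited values are log2 RMA signals per probe set of Affymetrix arrays, as the authors made them and as the submitters' processing notes name RMA. The sources used here give neither its version and settings nor a genome build. The arrays of a line share nearly 1 distribution, and array medians ran from 6.03 to 6.26. Of 45101 probe sets, 34945 named 1 gene. A probe set stayed in if 3 or more arrays exceeded the detection level, the 40th percentile of that array, and a gene was read from the one with the highest mean. Contrasts of 6 groups were fitted with lmFit and eBayes of limma 3.58.1 (R 4.3.3), with 15 residual and 3.54 prior degrees of freedom. The tests were two-sided, errors after a change are standard errors, and p-values were adjusted by Benjamini-Hochberg over 13850 genes per contrast. The number of arrays limits the precision.

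The genes, lists and rules were chosen with earlier results of these data known. Values in every array are given for up to 10 called genes of smallest p in Sey and 5 in the other mutants, for up to 4 per difference between lines, and for the gene of highest mean in each role; others are said to be chosen later. From the wider list and the repressors, up to 4 genes per mutant are named. Summed signals are sums of linear signals over a list. As alternatives, the fit was repeated with quantile normalization or centring of arrays, without the filter or with a stricter one, on averaged probe sets, and with array weights. It was also run with a robust variance and trend, a replicate block, a term for sex, only the arrays of the groups compared, and each array left out. Arrays of one sex were added after the data were seen. The pipeline was tested on simulated data.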

Additional observations from a re-analysis of the deposited data

Results flagged for a closer look

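Some arrays stood apart from the others of their group by Dixon's test. This held in 7 of 114 groups of 4 arrays tested for a gene, and chance gives about 5% of such groups. Rims1 read 7.58 in Sey mutant 1 where the other 3 lay between 7.22 and 7.28, and 7.10 in Leca2 mutant 4 where the others lay between 7.38 and 7.43. Nlgn3 read 8.41 in Sey mutant 3 against 8.33 to 8.34, Stmn3 read 12.89 in Sey mutant 1 against 12.82, and Mapt read 10.99 in Sey mutant 4 against 11.24 to 11.25. Dcx read 12.52 in Leca4 control 2 against 12.68 to 12.70, and Tubb3 read 12.58 in Leca2 mutant 4 against 12.75.

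The change differed between lines, by limma, for these genes. Sey minus Leca4 was -0.93 for Dlg2, -1.04 for Syt4, -0.63 for Snap25, -0.29 for Syt11 and -0.45 for Homer1. It was -0.55 for Syt13, -0.32 for Cplx2, -1.19 for Pclo, -0.34 for Syp and -0.58 for Rab3c, and 0.47 for both Nrxn3 and Rims2. Sey minus Leca2 was -0.70 for Rbfox3, -0.64 for Syt13, -0.36 for Cplx2, -0.60 for Snap25 and -0.35 for Rab3a. It was -0.39 for Syp, -0.67 for Syt4 and -0.40 for Homer1, and it was 0.61 for Rims2 and 0.59 for Nrxn3. Leca4 minus Leca2 was 0.73 for Dlg2, 0.60 for Sv2b and 0.31 for Syt11. All 4 Sey mutant values of Syt13 were at or below the detection level, so that its differences are fitted values whose size was not measured. The adjusted p-values ranged from 4.55e-05 to 0.0479.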

How the results depend on the processing

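The Sey count of 19 genes became 12 with a term for sex, and ran from 14 to 18 when 1 array was left out. The Leca4 count of 3 became 1 with only the groups compared and 5 with array weights, and ran from 2 to 5, with 5 without control 2. The Leca2 count was 0 in every setting that left out 1 array. For Sey minus Leca4 the count of 12 became 5 with a replicate block and 6 with a term for sex. It ran from 5 to 12, with 5 without Sey control 3 and 7 without Sey control 1, Sey control 2 or Leca4 mutant 2. For Sey minus Leca2 the count of 10 became 6 with a replicate block, 6 with the mean of all kept probe sets and 1 with a term for sex. It ran from 4 to 14, with 4 without Leca2 control 1, 5 without Leca2 control 3 and 6 without Sey control 1 or 3. For Leca4 minus Leca2 it ran from 2 to 3. Replicate numbers were not treated as pairs in the main fit. The deviations of same-numbered samples correlated between -0.44 and 0.338, and so few samples cannot show whether the numbers mark pairs. The value of Syn2 in Leca4 reversed to 0.14 with the mean of probe sets. Scaling alternatives moved the median of all genes by at most 0.0071. The causes were not tested.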
